A study of Drosophila melanogaster with 33 samples.

Results

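The maternal Toll pathway genes gd, snk, ea, spz, Tl, tub, pll, cact and dl were followed from nuclear cycle (NC) 7 to cellular blastoderm in fruit fly embryos, to see which of their maternal mRNAs were cleared and which were made again by the embryo. They were chosen by name as textbook members of the pathway, with earlier results of these data known, and are 9 of the 16407 genes listed in each of 2 expression tables, and all 9 passed the filter on low values in both tables. The embryos were of the Oregon R wild-type strain, with no transgene or mutation, and every group had received an injection of 5-EU (5-ethynyl uridine), which takes the place of uridine in RNA made afterwards. They were staged by their shape as NC 7-9, NC 9-10, syncytial blastoderm or cellular blastoderm. Labelled RNA was biotinylated and captured on streptavidin, so that each preparation gave 3 libraries: the eluate with captured RNA and any unlabelled RNA that stuck to the beads, the flow-through with RNA that did not bind, and the input, which is total RNA. Poly(A) RNA came from 7 preparations and 21 libraries, of which 1 was NC 7-9 and the other stages had 2 each. RNA depleted of rRNA came from 4 preparations and 12 libraries, with 1 preparation of every stage. The dose was 250 mM 5-EU, except in the second poly(A) preparations of both blastoderm stages, which had 50 mM. Dose and preparation therefore cannot be told apart at these stages. There was no uninjected control among the samples. The labels do not say how many embryos a preparation held or whether preparations came from separate collections. The p-values therefore measure at most the spread between preparations. The main fit also counted the fractions of a preparation as separate, although they deviated together from their stage means (r = 0.511 to 0.929 across genes). Its p-values between stages may therefore be too small.

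The Toll pathway sets the dorsoventral axis of the fly embryo. In the fluid around the egg membrane a chain of serine proteases runs from Gastrulation defective (gd) through Snake (snk) to Easter (ea), which cleaves the ligand Spätzle (spz) on the ventral side only. Cleaved Spätzle binds the receptor Toll (Tl), the adaptor Tube (tub) and the kinase Pelle (pll) are recruited, the inhibitor Cactus (cact) is degraded, and the NF-κB family factor Dorsal (dl) enters ventral nuclei, where it switches on genes of the mesoderm and neurogenic ectoderm. The mother supplies these mRNAs to the egg, and several of them are used again later in immunity and in muscle and nerve development.

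By the BDGP6.54 annotation (in the coordinates of the dm6 assembly that the submitters' notes name), gd (FBgn0000808) lies on chromosome X at 11985154 to 11987764 on the minus strand. The other proteases lie on arm 3R, snk (FBgn0003450) at 13040165 to 13042770 on the minus strand and ea (FBgn0000533) at 15328729 to 15330408 on the plus strand. The ligand gene spz (FBgn0003495) lies on 3R at 27064990 to 27070070 on the minus strand, and the receptor gene Tl (FBgn0262473) on 3R at 26799041 to 26842403 on the plus strand. The Tl gene spans 43363 bp with 5198 bp of exons and is the longest of the 9. The adaptor and kinase genes are also on 3R, tub (FBgn0003882) at 4387742 to 4389813 on the plus strand and pll (FBgn0010441) at 27251131 to 27253182 on the minus strand. The inhibitor and factor genes lie on 2L on the minus strand, cact (FBgn0000250) at 16313036 to 16326207 and dl (FBgn0260632) at 17436830 to 17450364. Exons shared with a gene on the opposite strand were short, at most 62 bp (cact with fzy), 1.87% of its exonic length.

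Levels are given as ppm: deposited values were rescaled to a total of 1000000 per library and then divided by a median-of-ratios size factor. Printed levels of a library therefore do not sum to 1000000. The size factors were 1.25 and 1.22 in the poly(A) inputs of NC 9-10 and 0.891 and 0.793 in those of cellular blastoderm. Stage differences of printed levels include these factors. Levels are per length of transcript, so that genes can be compared. They are relative to the other RNA of a library and not amounts per embryo, and in whole embryos fewer cells with an mRNA and less of it per cell cannot be told apart. Where libraries are said to overlap or not, this only describes the printed values. With 2 libraries against 2, unchanged genes can also lie apart, and the share of all genes that did so is not given here. The estimated number of reads in a library was 1.93 M to 36.9 M for poly(A) and 2.14 M to 34.3 M for rRNA-depleted RNA (M, 1000000). The stages showed their textbook markers: 10 zygotic genes summed to 83.7 to 130 ppm in the inputs of NC 9-10 and to 6255 to 7373 ppm at cellular blastoderm, while 10 maternal genes went from 7831 to 9227 ppm down to 2952 to 3047 ppm. Markers of ovarian follicle cells summed to at most 7.67 ppm in any poly(A) group, and all 15 were at 0 in the NC 7-9 input. A pair of rRNA-depleted libraries went against their labels. Across 6463 genes the rRNA-depleted NC 9-10 input correlated at r = 0.994 with the second poly(A) NC 9-10 input and at 0.902 with its own flow-through, and the syncytial blastoderm input at 0.985 with the first poly(A) input of that stage and at 0.880 with its own flow-through. The rRNA-depleted inputs of NC 7-9 and cellular blastoderm correlated at 0.997 and 0.967 with their own flow-through. No gene with a deposited value above 1, the lowest there is, had the same value in the libraries that resembled each other. Results of the rRNA-depleted set are therefore given with and without these inputs.

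The total mRNA of the 9 genes took separate courses between NC 9-10 and cellular blastoderm. The mRNAs of dl, spz and tub fell, that of Tl rose, and those of gd, snk, ea, pll and cact did not pass the test. In limma, with Benjamini-Hochberg adjustment over 8744 genes and a threshold of 0.05, 1 of the 9 was higher and 3 were lower, against a background of 27.6% of all genes called higher and 21.3% called lower. The share of members called was thus near that of all genes, 48.9%. The median log2 difference of the 9 was −0.44, beside 0.31 for all genes tested. When libraries were scaled to their total alone, the median gene moved to −0.01, and 0 members were higher and 5 lower, with a median of −0.99. On values as deposited, centred on the median gene of each library, 2 were higher and 2 lower, with a median of 0.22, and ea was then called higher (1.76, adjusted p = 0.0126).

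The largest loss was that of dl, the transcription factor at the end of the pathway. Its input level was 43.6 ppm at NC 7-9, 44.8 and 24.2 ppm in the first and second preparations of NC 9-10, 21.1 and 11.7 ppm at syncytial blastoderm and 2.41 and 1.59 ppm at cellular blastoderm. No library of cellular blastoderm reached the lowest of an earlier stage, and each preparation number showed the same order. Between NC 9-10 and syncytial blastoderm 0 of the 9 were called in inputs, beside 7.56% of all genes, and 16.5% of all genes had an unadjusted p below 0.05. From NC 9-10 the log2 difference of dl was −1.02 ± 0.41 (SE, n = 2 against 2, adjusted p = 0.211) at syncytial and −3.52 ± 0.41 (adjusted p = 3.03e-05) at cellular blastoderm in limma. The fall from syncytial to cellular blastoderm passed as well (−2.50 ± 0.41, adjusted p = 0.000791), in a comparison that called 30.7% of all genes. The flow-through gave the same picture, with 40.9 and 22.8 ppm at NC 9-10 and 1.80 and 2.11 ppm at cellular blastoderm (−3.42 ± 0.41, adjusted p = 3.63e-05), where 48.5% of all genes were called.

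The ligand mRNA spz stayed high until syncytial blastoderm and then fell. Its input level was 206 ppm at NC 7-9, 209 and 251 ppm at NC 9-10, 280 and 192 ppm at syncytial blastoderm, and 60.1 and 32.2 ppm at cellular blastoderm. The cellular blastoderm libraries lay below all others. The log2 difference from NC 9-10 was −2.35 ± 0.49 (adjusted p = 0.00194) and that from syncytial blastoderm −2.37 ± 0.49 (adjusted p = 0.00363). The fall was also called in the flow-through, at −2.34 ± 0.49 (adjusted p = 0.00191).

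The receptor mRNA Tl was the only member called higher in inputs. It stood at 287 ppm at NC 7-9, 303 and 298 ppm at NC 9-10, 410 and 412 ppm at syncytial blastoderm, and 571 and 632 ppm at cellular blastoderm, with no overlap between stages. The log2 difference of cellular blastoderm from NC 9-10 was 1.0 ± 0.22 (adjusted p = 0.00255) in inputs and 1.1 ± 0.22 (adjusted p = 0.00125) in flow-throughs. This rise is relative to the other mRNAs. Scaled to the library total alone it measured 0.44 (adjusted p = 0.173) in inputs and 0.31 (adjusted p = 0.371) in flow-throughs.

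Of the mRNAs for the cytoplasmic proteins, tub fell in a small step. Its inputs held 101 ppm at NC 7-9, 102 and 110 ppm at NC 9-10, 116 and 113 ppm at syncytial blastoderm, and 66.6 and 63.0 ppm at cellular blastoderm. The log2 difference from NC 9-10 was −0.70 ± 0.20 (adjusted p = 0.0141), and from syncytial blastoderm −0.82 ± 0.20 (adjusted p = 0.0102). The call from NC 9-10 was lost without the second NC 9-10 input (adjusted p = 0.0791) or without the second cellular blastoderm input (adjusted p = 0.0679), and the value was −0.03 (adjusted p = 0.900) on values as deposited, centred on the median gene. The call from syncytial blastoderm was lost without the first syncytial input (adjusted p = 0.0643) or the second cellular one (adjusted p = 0.0534). In flow-throughs tub went from 99.1 and 104 ppm at NC 9-10 to 60.0 and 89.1 ppm and was not called (−0.47 ± 0.20, adjusted p = 0.0792). That flow-through difference was called with scaling to the total alone (−1.24, adjusted p = 0.000575) and without the second cellular blastoderm flow-through (−0.75, 0.0165), and on values as deposited it was 0.45 (0.0639). For pll the inputs ran from 53.8 ppm at NC 7-9 through 55.2 and 65.8 ppm at NC 9-10 and 65.0 and 81.2 ppm at syncytial blastoderm to 38.1 and 50.9 ppm at cellular blastoderm. The last lay below all earlier libraries, at −0.44 ± 0.28 from NC 9-10 (adjusted p = 0.215).

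The inhibitor mRNA cact differed more between preparations than between stages. Its inputs held 472 ppm at NC 7-9, 513 and 279 ppm at NC 9-10, 467 and 161 ppm at syncytial blastoderm and 794 and 349 ppm at cellular blastoderm. The second preparation was lower than the first in all 9 pairs of stage and fraction, with a ratio of 0.316 to 0.642. The fractions of a preparation deviated together, so these 9 amount to no more than 1 independent pair per stage. The share of all genes lower in all 9 is not given here. No other member was lower in all 9, and snk, ea and pll were each lower in 1 of 9. At NC 9-10 both preparations had 250 mM 5-EU, so cact differed there at the same dose. The log2 difference of cellular blastoderm from NC 9-10 was 0.47 ± 0.78 (adjusted p = 0.645) in the fit without a term for the preparation number. Set side by side by number, cact was higher at cellular blastoderm than at NC 9-10 in both, with 513 and 794 ppm in the first inputs and 279 and 349 ppm in the second, and likewise in flow-throughs (506 and 1043 ppm, 299 and 434 ppm) and eluates (471 and 812 ppm, 303 and 317 ppm). The labels do not say that a number marks anything shared between stages.

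By the group means of poly(A) inputs at NC 7-9 and NC 9-10 the protease mRNAs were the least abundant of the 9, although in the second NC 9-10 input ea (27.5 ppm) lay above dl (24.2 ppm). The inputs of gd, the first protease of the chain, held 11.8 ppm at NC 7-9, 12.8 and 15.7 ppm at NC 9-10, 17.8 and 14.9 ppm at syncytial blastoderm, and 4.84 and 9.56 ppm at cellular blastoderm (−0.95 ± 0.41 from NC 9-10, adjusted p = 0.0726). Those of snk, the next in the chain, held 11.2 ppm, then 12.5 and 20.2, 19.0 and 27.1, and 17.7 and 23.2 ppm at the same stages (0.33 ± 0.42, adjusted p = 0.540). The libraries of snk overlapped between stages. The inputs of ea, which activates the ligand, went from 25.5 ppm through 27.1 and 27.5 and 33.3 and 39.7 to 53.0 and 63.3 ppm without overlap, at 1.06 ± 0.51 (adjusted p = 0.107). In flow-throughs ea stood at 26.9 and 29.7 ppm at NC 9-10 and 68.9 and 89.4 ppm at cellular blastoderm and was called higher (1.44 ± 0.51, adjusted p = 0.0345). This flow-through call was lost without any 1 of its 4 libraries (adjusted p = 0.0654 to 0.158), without the filter on low values (0.0578) and with scaling to the total alone (0.331).

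**Figure D1:**
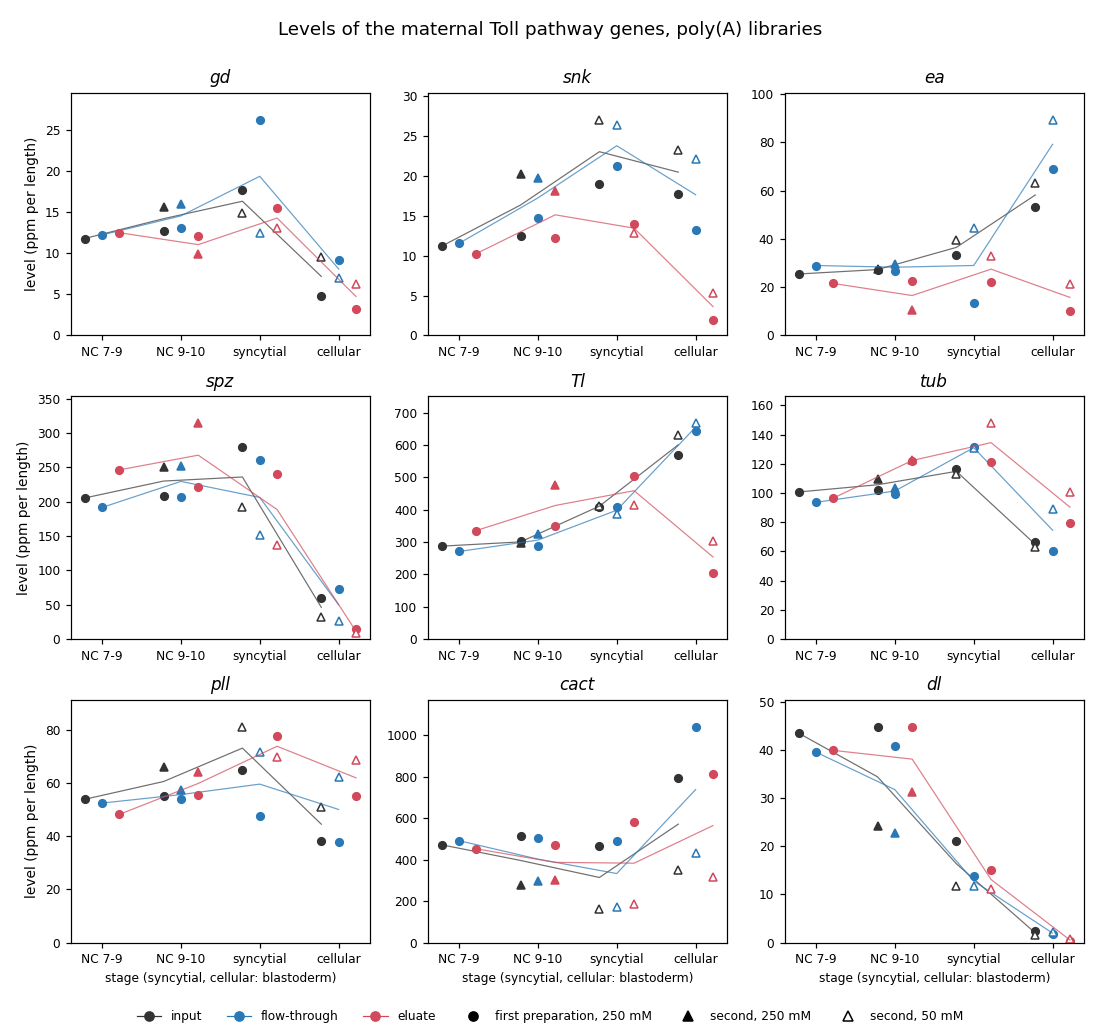
Level of each gene in ppm (vertical axis, linear from 0) in the 21 poly(A) libraries by stage (horizontal axis), with 1 point per library, filled for 250 mM and open for 50 mM 5-EU, and lines through the group means of input, flow-through and eluate. The dl panel falls from 43.6 ppm in the NC 7-9 input to 2.41 and 1.59 ppm at cellular blastoderm, and in the Tl panel the eluates of cellular blastoderm (206 and 302 ppm) lie below the inputs (571 and 632 ppm).

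Labelled RNA was then set against total RNA of the same stage. A transcript made after the injection should be richer in the eluate than in the input, and one only left from the mother poorer, but both also depend on how many other transcripts are newly made. At NC 9-10 limma called 0 of 8744 genes and so 0 members, while 398 genes (4.55%) had an unadjusted p below 0.05. The members ran from −0.78 ± 0.51 for ea to 0.44 ± 0.22 for Tl (adjusted p = 1 for both). At NC 7-9, with 1 library a fraction and no test, all 9 lay between −0.23 (ea) and 0.26 (spz). At syncytial blastoderm 0 members were called, while 11.2% of all genes were higher and 0.698% lower. The members then ran from −0.71 ± 0.42 for snk (adjusted p = 0.387) to 0.26 ± 0.78 for cact (adjusted p = 0.960).

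At cellular blastoderm the 9 genes divided. The mRNAs of snk, spz, ea and Tl were lower in the eluate than in the input, dl and gd measured below it, cact lay close to it, and tub and pll measured above it. The test called 0 of 9 higher and 4 of 9 lower, against a background of 39% of all genes higher and 17.3% lower, or 56.4% in either direction. The median of the 9 was −0.98, beside 0.57 for all genes tested, and each of the 9 differences lay below that of the median gene. With the preparation as a block, which uses the pairing of eluate and input, 7 were called: the same 4 and dl lower, tub and pll higher. The shares of all genes above are from the fit without the block, and none is given here for the fit with it. The block raised calls in other genes too: of 10 zygotic marker genes 6 were higher without it and 10 with it. The rise to 7 is therefore not particular to the members. Eluate, flow-through and input of 1 preparation deviated together from their stage means (r = 0.511 to 0.929 across genes).

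Tl was the abundant gene among those lower in the eluate. At cellular blastoderm its eluates held 206 and 302 ppm against 571 and 632 ppm in the inputs and 643 and 668 ppm in the flow-throughs, without overlap. The log2 difference of eluate and input was −1.26 ± 0.22 (adjusted p = 0.00061, limma). At NC 9-10 its eluates had held 349 and 477 ppm against 303 and 298 ppm.

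The protease mRNAs snk and ea and the ligand mRNA spz had low eluates too. For snk these were 1.94 and 5.31 ppm against 17.7 and 23.2 ppm in inputs (−2.31 ± 0.42, adjusted p = 0.000826), and 0.926% of all genes tested had a lower difference. For spz the eluates held 14.2 and 8.20 ppm against 60.1 and 32.2 ppm (−1.93 ± 0.49, adjusted p = 0.00585). For ea they held 10.1 and 21.4 ppm against 53.0 and 63.3 ppm (−1.90 ± 0.51, adjusted p = 0.00796). In none of the 3 genes did the fractions overlap, which with 2 libraries against 2 is a description only. The call of spz was lost without the first cellular blastoderm input (adjusted p = 0.0557), and that of ea without the first eluate (0.0861) or the second input (0.0514). With the preparation block the adjusted p was 4.74e-05 for snk, 1.91e-05 for spz, 0.000999 for ea and 9.65e-05 for Tl.

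The mRNA of dl, already low in total RNA, was at 0.331 and 0.715 ppm in eluates against 2.41 and 1.59 ppm in inputs of cellular blastoderm. Its log2 difference was −0.98 ± 0.41 (adjusted p = 0.0592, and 0.009 with the preparation block). Since the added 1 compresses such low levels, the value with 0.1 added was −1.80 ± 0.49 (adjusted p = 0.0102). The gd eluates held 3.26 and 6.23 ppm against 4.84 and 9.56 ppm (−0.50 ± 0.41, adjusted p = 0.318), with overlap between the fractions.

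The genes of the cytoplasmic complex behaved differently. The tub eluates held 79.7 and 101 ppm against 66.6 and 63.0 ppm in inputs, and those of pll 55.0 and 68.8 ppm against 38.1 and 50.9 ppm, so that in both preparations the eluate exceeded its input. The log2 differences were 0.46 ± 0.20 for tub (adjusted p = 0.0715) and 0.47 ± 0.28 for pll (adjusted p = 0.174). With the preparation block both passed, at 0.0236 and 0.0394. Of all genes tested 47.8% had a lower difference than tub and 48.1% than pll, and on values as deposited, centred on the median gene, both measured below 0 (−0.19 and −0.17). The cact eluates held 812 and 317 ppm against 794 and 349 ppm, with a log2 difference of −0.05 ± 0.78 (adjusted p = 0.962), and the order of preparations in the eluate matched that in the input.

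**Figure D2:**
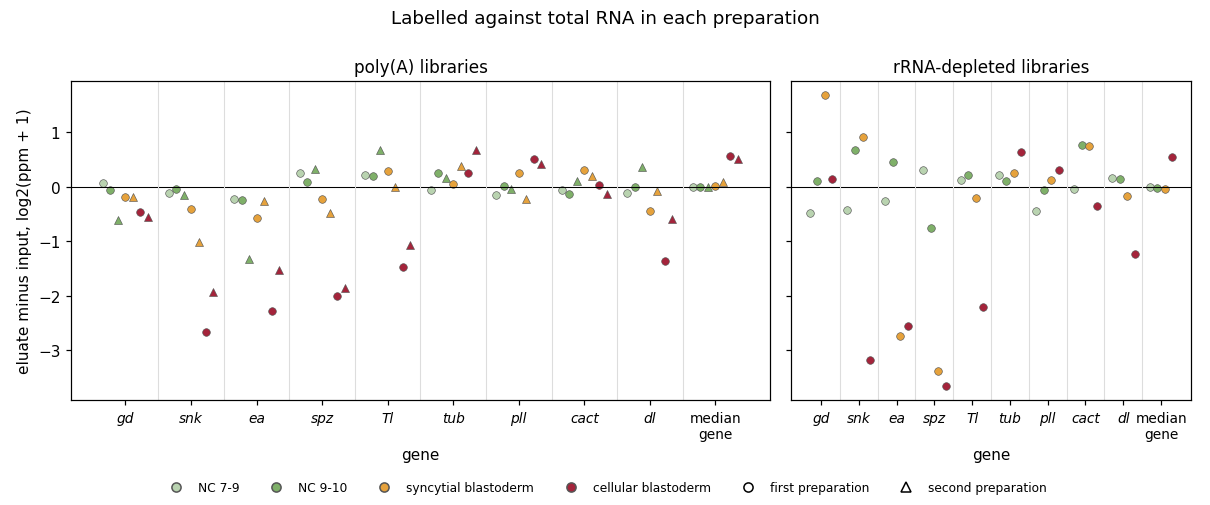
Eluate minus input on the log2(ppm + 1) scale (vertical axis) for each gene and for the median gene (horizontal axis), 1 point per preparation, with 7 poly(A) preparations on the left and 4 rRNA-depleted ones on the right, coloured by stage. The cellular blastoderm points of snk, ea, spz and Tl lie between −2.67 and −1.06 in poly(A) RNA, while the median gene lies at 0.57 and 0.51.

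How the content of the eluates changed between stages was compared directly. At NC 9-10 eluate against input had called 0 of 8744 genes. The 10 zygotic marker genes nevertheless had a median log2 difference of 3.52 in that comparison, with 0 called. The absence of calls therefore does not show that labelled RNA was absent from these eluates. For the members, this test did not tell labelled RNA and unlabelled RNA that stuck to the beads apart. From NC 9-10 to syncytial blastoderm 1 member was called, dl, from 45.0 and 31.4 ppm to 15.1 and 11.1 ppm (−1.47 ± 0.41, adjusted p = 0.0228), where 7.28% of all genes were called lower. That call was lost on values as deposited, with only the compared groups in the fit, and without the first NC 9-10 eluate (adjusted p = 0.129) or the second syncytial one (0.113). From NC 9-10 to cellular blastoderm 5 of 9 were lower and 0 higher, beside 17.8% of all genes lower and 39.4% higher: dl (−4.68 ± 0.41, adjusted p = 1.42e-06), spz (−4.49 ± 0.49, 9.32e-06), snk (−1.88 ± 0.42, 0.0021), gd (−1.11 ± 0.41, 0.034) and Tl (−0.71 ± 0.22, 0.0145). The spz eluates went from 221 and 315 ppm to 14.2 and 8.20 ppm, with no overlap. With only the compared groups in the fit gd, snk (adjusted p = 0.0538) and Tl were not called. The gd and Tl calls did not hold without the first cellular blastoderm eluate (adjusted p = 0.231 and 0.126) or the second NC 9-10 eluate (0.0633 and 0.131), and the gd call not without the first NC 9-10 eluate (0.131).

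From syncytial to cellular blastoderm 6 of 9 were lower in eluates, beside 13.9% of all genes. They were spz (−3.95 ± 0.49, adjusted p = 6.68e-05), dl (−3.21 ± 0.41, 7.65e-05), snk (−1.75 ± 0.42, 0.00483), gd (−1.46 ± 0.41, 0.0117), Tl (−0.87 ± 0.22, 0.00617) and tub (−0.57 ± 0.20, 0.0375). The eluates of spz fell from 241 and 137 ppm and those of gd from 15.5 and 13.1 ppm to 3.26 and 6.23 ppm. The eluates of ea and pll did not overlap between these stages either but did not pass, and those of cact overlapped. Without the first cellular blastoderm eluate, or with only the compared groups in the fit, spz and dl alone were called, and without the first syncytial eluate gd (adjusted p = 0.06) and Tl (0.0525) were lost. Without the second syncytial eluate tub was lost (0.188).

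Whether enrichment itself differed between NC 9-10 and cellular blastoderm was tested as an interaction of fraction and stage. It passed, downwards, for 3 of the 9: Tl (−1.70 ± 0.31, adjusted p = 0.00308), snk (−2.21 ± 0.59, 0.0144) and spz (−2.13 ± 0.69, 0.0326). In all genes 8.52% were called lower and 27.2% higher. With the preparation block dl passed as well (−1.16, adjusted p = 0.0277). The values of gd (−0.17), cact (−0.05), tub (0.25), pll (0.49) and ea (−1.12) did not pass. Without single libraries the call of snk was lost in 3 cases (adjusted p = 0.0536 to 0.0591) and that of spz in 5 (0.0633 to 0.110), and that of Tl in none. Without the filter on low values spz was at an adjusted p of 0.051.

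**Figure D3:**
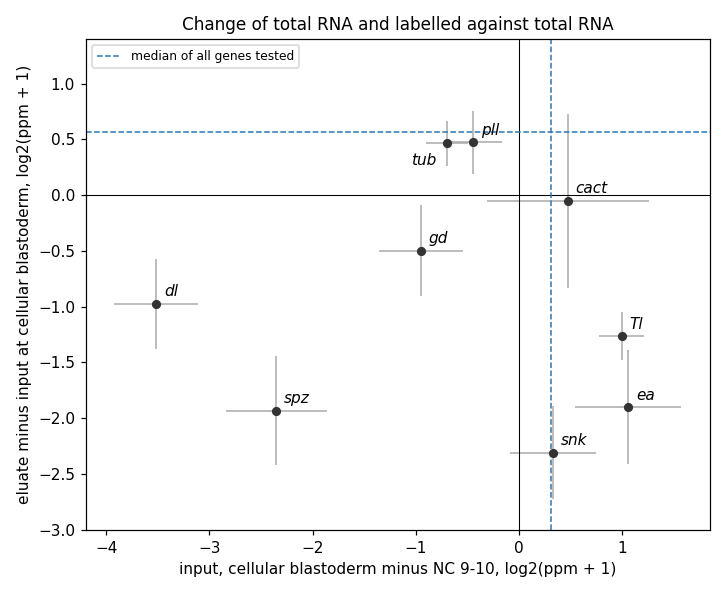
Change of total mRNA from NC 9-10 to cellular blastoderm (horizontal axis, log2 difference of inputs) against eluate minus input at cellular blastoderm (vertical axis, log2), 1 point per gene with SE bars and dashed lines at the median of all genes tested (0.31 and 0.57). Both axes use the cellular blastoderm inputs, so they are not independent. The points of dl and spz lie at the lower left, those of Tl and ea at the lower right, that of snk at the bottom on the vertical dashed line, and those of tub and pll just under the horizontal one.

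In rRNA-depleted RNA, eluate against input over all stages called 0 of 8131 genes in limma, while 1077 (13.2%) had an unadjusted p below 0.05, and called 0 members. Flow-through against input also called 0, with 129 genes (1.59%) at an unadjusted p below 0.05. The member furthest from 0 was spz, at −1.87 ± 0.70 (adjusted p = 0.364), followed by ea at −1.27 ± 0.59 (0.364). Without the NC 9-10 and syncytial blastoderm inputs that resembled poly(A) libraries, spz was at −1.40 ± 1.02 and ea at −1.34 ± 0.85 (adjusted p = 0.796 for both). Against the flow-through they were at −1.18 ± 0.70 (0.343) and −1.60 ± 0.59 (0.218). With 1 library per stage and fraction, the 0 genes called between flow-through and input do not show these fractions to be alike. In spz, flow-through minus input was −1.21 at NC 9-10 and −1.67 at syncytial blastoderm, the stages of those inputs.

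At cellular blastoderm, where the rRNA-depleted input matched its flow-through, the eluate held less than the input for the same 5 genes whose differences lay furthest below 0 in poly(A) RNA. The rRNA-depleted eluate held 1.05 ppm of spz against 24.8 ppm in the input, 0.683 ppm of snk against 14.2, 10.8 ppm of ea against 67.7, 93.6 ppm of Tl against 439 and 0.359 ppm of dl against 2.21. On the log2(ppm + 1) scale these were −3.65 for spz, −3.18 for snk, −2.55 for ea, −2.22 for Tl and −1.24 for dl. The eluate held more tub (125 against 80.4 ppm) and pll (61.2 against 49.4 ppm) and less cact (821 against 1051 ppm) than the input, and gd was at 13.0 against 11.7 ppm. The titles give these libraries the same stage and dose names as the first poly(A) preparations and do not say whether the RNA was the same, and there is no replicate for a test.

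At earlier stages single rRNA-depleted libraries were uneven. At syncytial blastoderm the eluate, with an estimated 2.14 M reads, held 48.5 ppm of gd and 30.7 ppm of snk against 20.2 and 19.3 ppm in the flow-through, but 5.78 ppm of ea against 60.3 ppm. The inputs of NC 9-10 and syncytial blastoderm held 175 and 187 ppm of spz, where every other rRNA-depleted input or flow-through held 24.8 to 80.8 ppm, and the NC 9-10 input held 313 ppm of cact, below all other rRNA-depleted libraries. The second poly(A) NC 9-10 input, which that library resembled, held 251 ppm of spz and 279 ppm of cact. Total dl fell in this set as well, from 27.4 ppm in the NC 7-9 input to 2.21 ppm in the cellular blastoderm input, and total Tl went from 252 to 439 ppm.

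**Figure D4:**
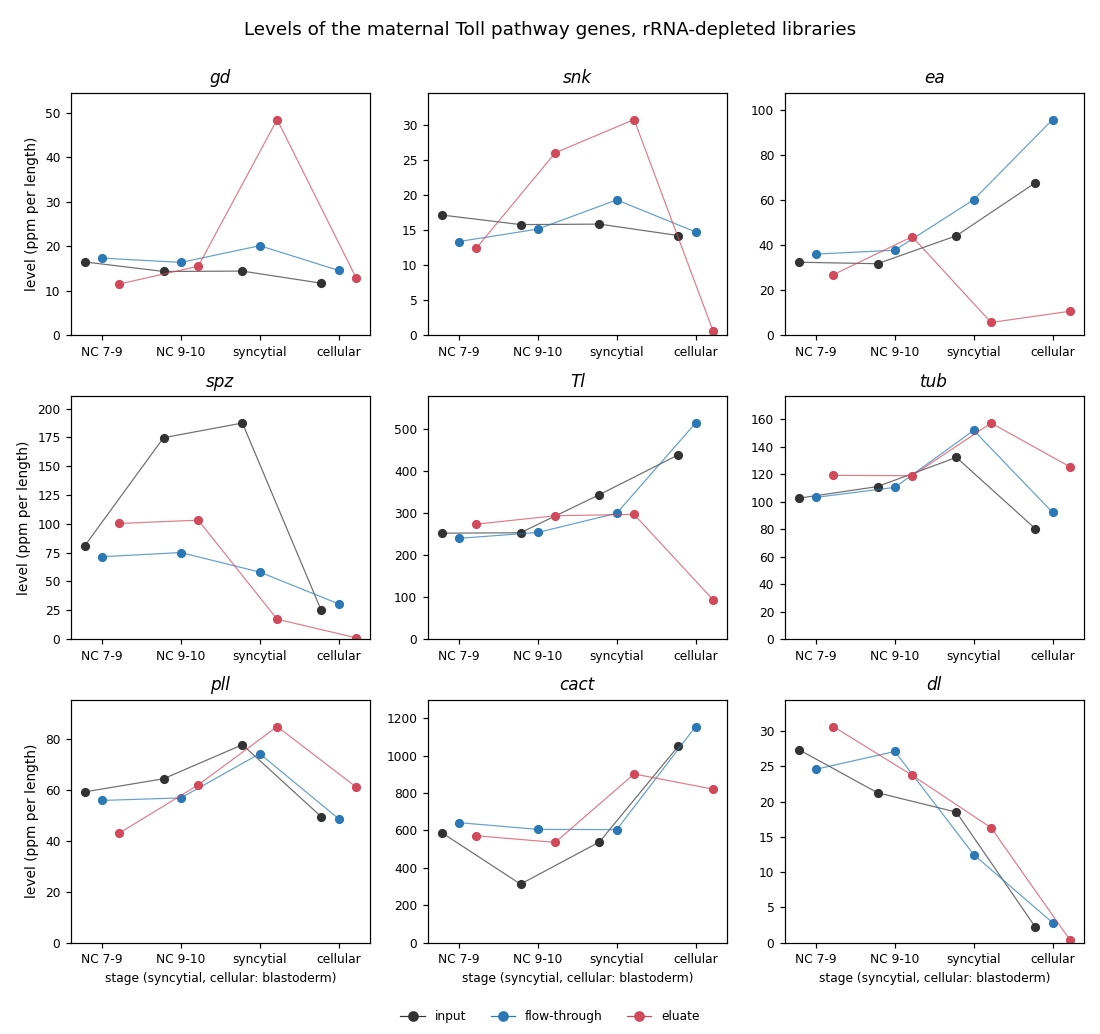
Level of each gene in ppm (vertical axis, linear from 0) in the 12 rRNA-depleted libraries by stage (horizontal axis), 1 point per library and lines joining the stages of input, flow-through and eluate. In the spz panel the inputs of NC 9-10 and syncytial blastoderm, 175 and 187 ppm, stand above the flow-throughs of the same preparations, 75.0 and 58.1 ppm.

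Poly(A) and rRNA-depleted levels of the 9 genes can be set side by side only as values, since the tables were scaled apart. Over stages and fractions, leaving aside the pair of inputs that resembled poly(A) libraries, the ratio of the level in the first poly(A) preparation (at NC 7-9 the one there was) to the rRNA-depleted level was 2.14 to 14.0 for spz. The second poly(A) preparation at cellular blastoderm, with 26.9 ppm of spz in the flow-through and 8.20 ppm in the eluate, stood against 30.5 and 1.05 ppm in rRNA-depleted RNA, so spz was not higher in poly(A) RNA in every case. With the first preparation the ratio was 0.64 to 1.12 for pll, 0.64 to 1.03 for tub, 0.65 to 0.99 for cact and 1.13 to 2.19 for Tl. For gd, snk, ea and dl it lay on both sides of 1.

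Ordered by level, cact and Tl were the most abundant in every poly(A) input group, with cact first at NC 7-9 and NC 9-10 (means of 472 and 396 ppm) and Tl first at syncytial and cellular blastoderm (411 and 601 ppm). The ranges of cact and Tl overlapped at each replicated stage. Next came spz, then tub and pll, until the mean of spz lay below those of tub and ea at cellular blastoderm, where tub held 64.8 ± 2.55 (SD, n = 2), ea 58.2 ± 7.29, spz 46.2 ± 19.7 and pll 44.5 ± 9.04 ppm. All neighbours in this order overlapped in range, tub with ea (63.0 to 66.6 and 53.0 to 63.3 ppm), ea with spz (32.2 to 60.1 ppm) and spz with pll (38.1 to 50.9 ppm). The lowest at cellular blastoderm was dl with 2.0 ± 0.583 ppm, while at NC 7-9 it had stood above ea, gd and snk with 43.6 ppm.

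As a description over the 21 poly(A) libraries, which share preparations and stages, the genes with the most similar course were found among 6556 genes with a mean of at least 5 ppm. For spz they were CG18586 (Pearson r = 0.991) and osk, the posterior determinant (0.978), for dl olf186-M (0.985) and Hnf4, a nuclear receptor (0.983), and for Tl Oatp30B (0.981) and the mitochondrial protease gene Lon (0.973). For ea they were the ribosomal protein genes RpL26 and RpL14 (both 0.973). Those of cact were Cdc5 (0.972) and akirin (0.966), those of snk CG7384 (0.943) and CG5112 (0.934), those of tub DUBAI (0.942) and mus304 (0.918), those of gd CG4404 (0.916) and mal (0.911), and those of pll tam (0.894) and Ada2b (0.885). Among the 9 themselves spz and dl were most alike (r = 0.90), followed by gd with spz (0.81), while pll and cact ran most opposed (−0.73).

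Other genes of the pathway gave a background for these courses. Of 20 listed genes that act beside the 9, 14 were tested. In inputs from NC 9-10 to cellular blastoderm 5 were higher and 0 lower (median 0.38, beside 0.31 for all genes). These were 35.7% and 0%, beside 27.6% and 21.3% of all genes. The 3 with the smallest adjusted p were wntD, a feedback inhibitor of Toll signalling (3.60 ± 0.51, adjusted p = 0.000124), the SUMO-conjugating enzyme gene lwr (1.39 ± 0.30, 0.00256) and the protease gene modSP of the immune branch (1.01 ± 0.28, 0.0106). With scaling to the total alone 3 were higher, and on values as deposited 8. In eluate against input at cellular blastoderm 3 were higher and 6 lower (median −0.47, beside 0.57). These were 21.4% and 42.9%, beside 39% and 17.3% of all genes. The higher ones were Pli, a Pelle-binding protein gene (1.56 ± 0.21, 0.000183), wntD (1.75 ± 0.51, 0.0115) and modSP (0.77 ± 0.28, 0.0329). The lower ones with the smallest adjusted p were Hrs, of endosomal sorting (−1.72 ± 0.30, 0.000628), Spn27A, a serpin that restrains Easter (−1.88 ± 0.39, 0.0018), and tamo (−1.0 ± 0.30, 0.0153). Levels of Pli were 359 to 447 ppm in eluates and 124 to 147 ppm in inputs of cellular blastoderm, and those of Spn27A 17.6 to 39.5 and 92.1 to 108 ppm. The adaptor gene Myd88, which works with Tube and was added here after its values were seen, was lower in the eluate (−1.76 ± 0.59, 0.0236), with 7.17 to 7.35 ppm against 22.6 to 32.2 ppm. Dif, the immune relative of Dorsal, stood at no more than 0.239 ppm in any poly(A) input or eluate.

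The zygotic targets of Dorsal were mostly higher, both in total RNA and in the eluate. Of 18 listed targets 15 were higher and 0 lower in inputs of cellular blastoderm against NC 9-10 (median 4.99), and 14 were higher and 0 lower in eluate against input at cellular blastoderm (median 2.28). Of all genes 27.6% were higher and 21.3% lower in the first comparison, and 39% and 17.3% in the second. Named by the smallest adjusted p in the latter were htl, an FGF receptor gene of the mesoderm (2.48 ± 0.28, adjusted p = 9.74e-05), vnd, of the ventral nerve cord (2.44 ± 0.32, 0.000153), and pyr, an FGF ligand gene (2.13 ± 0.43, 0.0016). The count of 14 became 18 with the preparation block, 13 with scaling to the total alone and 2 on values as deposited. Of 10 maternal markers 1 was higher and 8 lower in the same comparison (median −1.39), bcd, the anterior determinant, among them (−1.30 ± 0.21, 0.000389). Of 5 pole cell markers 4 were lower, with summed levels of 134 to 202 ppm in eluates and 343 to 357 ppm in inputs. Their part in the course of the 9 was not tested.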

How the data were processed

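RNA of 33 libraries was measured by stranded RNA sequencing. Per the labels' protocols and the submitters' processing notes, reads were aligned with STAR to dm6 and counted with HTSeq, with versions not given in the sources used here. The deposited values are named RPKM by the authors. Their lowest value is exactly 1 in every column, so 1 had been added, and their totals differ between libraries by a factor that is not given in the sources used here. Here the 1 was subtracted, each library was scaled to 1000000 (ppm) and divided by a median-of-ratios size factor, and log2(value + 1) was tested. A log2 difference on this scale understates the change of low genes. These are not counts, and whole reads could be estimated for only 76.0% to 86.5% of low values (within 0.05 of a whole read), so no count test was run. Estimated depth was 1.93 M to 36.9 M reads (M, 1000000), and low levels in the shallowest libraries are the least precise.

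Genes with at least 1 ppm in at least 2 libraries were tested (8744 in poly(A), 8131 in rRNA-depleted RNA) with limma 3.58.1 in R 4.3.3, trend and Benjamini-Hochberg adjustment at 0.05. The poly(A) fit had a mean per stage and fraction, and the rRNA-depleted fit had fraction and stage terms. The NC 7-9 preparation has no replicate and gives values only. Titles pair the fractions of a preparation, and their deviations from stage means correlated at 0.511 to 0.929. A fit with the preparation as a block was therefore an alternative where eluate was compared with input. Comparisons between stages within a fraction had no such alternative. On simulated data for inputs of cellular blastoderm against NC 9-10, over 8744 genes, 145 of 200 genes changed by a log2 of 2 were recovered (72.5%) and 11 others were called. The simulated spread was independent between libraries, unlike that of the real ones. These counts therefore do not measure the errors of the real fit. Replicate libraries correlated at 0.921 to 0.973 and shared 0 identical values above zero. Symbols were matched to the annotation for 16330 of 16407 genes (99.5%). Other libraries left out, scalings, filters, pseudocounts and references were tried as alternatives. All 9 members were named. Of every other list at most 3 genes in each direction were named, those with the smallest adjusted p. Myd88 and Dif were named outside this rule. Genes of similar course had to have a mean of at least 5 ppm. The members and lists were chosen with earlier results of these data known.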

Additional observations from a re-analysis of the deposited data

Results flagged for a closer look

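For 3 genes the difference between eluate and input itself differed between NC 9-10 and cellular blastoderm, tested as an interaction of fraction and stage in limma with Benjamini-Hochberg adjustment. For Tl the log2 value was −1.70 ± 0.31 (SE, adjusted p = 0.00308), with eluate minus input at 0.20 and 0.68 in the NC 9-10 preparations and at −1.47 and −1.06 at cellular blastoderm. For snk it was −2.21 ± 0.59 (adjusted p = 0.0144), from −0.04 and −0.15 to −2.67 and −1.94. For spz it was −2.13 ± 0.69 (adjusted p = 0.0326), from 0.08 and 0.32 to −2.01 and −1.85. In each gene both preparations of cellular blastoderm lay below both of NC 9-10. The median gene moved the other way, by 0.59, and on values as deposited its move was −0.90. The second cellular blastoderm preparation had 50 mM 5-EU and the others 250 mM, and the part of dose in these differences was not tested.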

How the results depend on the processing

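Counts of called members moved by over 1.5 times in several settings. With values as deposited, centred on the median gene, the input comparison of syncytial blastoderm with NC 9-10 went from 0 to 1 (Tl), and the eluate comparison of these stages from 1 to 0. Inputs of cellular against syncytial blastoderm went from 3 to 6 at a threshold of 0.1 and to 5 with scaling to the total alone. The preparation block (replicate block) raised eluate against input at cellular blastoderm from 4 to 7 and added dl to the change of enrichment, and it changed no other call of a member. With only the compared groups in the fit, the 3 eluate comparisons gave 0, 2 and 2. Leaving out 1 library gave 0 to 1 call in eluates of syncytial blastoderm against NC 9-10, 3 to 6 for cellular blastoderm against NC 9-10, 2 to 6 for cellular against syncytial blastoderm and 1 to 3 for the change of enrichment. Of called values 275 kept their call, 48 lost it and 0 changed sign over all alternatives. Of values not called, 24 gained a call.

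Signs changed only for values that had not passed, in 99 cases over all alternatives, of which those below are a part. With scaling to the total alone snk was at −0.19 and cact at −0.076 in inputs of cellular blastoderm against NC 9-10, and cact at −0.18 in eluate against input at syncytial blastoderm. On values as deposited pll was at 0.22 in that input comparison, tub at 0.45 in the flow-through comparison of the same stages, and tub and pll at −0.19 and −0.17 in eluate against input at cellular blastoderm. Leaving out 1 library moved cact from −0.12 to 1.07 in inputs, from −0.57 to 1.08 in eluate against input at syncytial blastoderm (−0.51 in a further case) and from −0.73 to 0.62 at cellular blastoderm (0.54 in a further case).

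Over all genes, inputs of cellular blastoderm against NC 9-10 called 2410 higher and 1866 lower, but 1234 and 2425 with scaling to the total alone and 4273 and 1298 as deposited. Eluate against input at cellular blastoderm called 3414 and 1517, but 1551 and 2326 as deposited, and the change of enrichment 2378 and 745, but 368 and 1665. Eluate against input at NC 9-10 called 0 genes, but 28 with the block and 1464 as deposited, and at syncytial blastoderm 1039, but 1680 with the block, 1729 as deposited and 0 with only the compared groups. The change of enrichment called 3123 genes, and 4944 with the block. Second and first preparations differed alike across stages (r = 0.233 to 0.704), so preparation numbers may mark something shared, which was not used as a block. The eluates of dl at cellular blastoderm lay below 1 ppm, where the added 1 compresses differences.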

Other observations

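Relatives of the maternal receptor and ligand took another course than Tl and spz at cellular blastoderm. Of 7 listed relatives of the Toll receptor 4 were tested. Beside 39% of all genes, all 4 were higher in eluate than in input there (median 2.12, limma), although 0 passed on values as deposited. They included 18w (2.44 ± 0.45, adjusted p = 0.000948), Toll-6 (1.88 ± 0.48, 0.0063) and Toll-7 (1.28 ± 0.35, 0.00927). Of 5 relatives of spz 1 was tested, spz3, and it was higher (2.45 ± 0.24, 5.46e-05). A gene can pass the filter on low values through the eluates of cellular blastoderm alone. The counts of relatives higher in these eluates may therefore be partly set by the filter, and they do not describe the relatives that were not tested.

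Genes that set dorsoventral polarity in the ovary were mixed. Of 13 listed 10 were tested, with 2 higher in eluate than in input at cellular blastoderm and 3 lower. These were 20% and 30%, beside 39% and 17.3% of all genes. The higher ones were the transcription factor gene mirr (2.38 ± 0.46, adjusted p = 0.00113) and the receptor gene Egfr (2.62 ± 0.60, 0.00327). The lower ones were grk, which encodes the ligand of that receptor in the egg chamber (−1.45 ± 0.36, 0.00532), capu (−0.78 ± 0.28, 0.0311) and Cbl (−0.80 ± 0.29, 0.0333).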
